A study of Mus musculus with 36 samples.

Results

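The cytosolic ribosomal protein genes encode the protein part of the ribosomes that translate nuclear mRNAs. They were taken as the rows of a gene-symbol count table whose symbol is Rpl or Rps followed by a number and at most 1 of the letters a, x or l, together with Rplp0, Rplp1 and Rplp2. This rule found 82 genes among 53299 rows, 51 of the large and 31 of the small ribosomal subunit. Of the 82, 79 are annotated as protein coding and 3 (Rpl32l, Rpl6l and Rps4l) as pseudogenes in GENCODE on GRCm38. A filter on low counts kept 78 members among 12463 genes for testing; Rpl10l, Rpl32l, Rpl3l and Rpl6l did not pass it.

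The libraries were made from total RNA of conventional dendritic cells grown from mouse bone marrow with FLT3 ligand, a cytokine that drives dendritic cell development. Both kinds of cell were profiled: cDC1, which specialise in cross-presenting antigen to CD8 T cells, and cDC2, which mainly prime CD4 T cells. Each was left untreated (labelled Nothing) or given LPS, a bacterial lipid that activates TLR4, PGPC, an oxidized phospholipid, or LPS together with PGPC. The labels hold no dose, time, mouse strain or genotype. There were 3 biological replicates in each group, except cDC2 with PGPC, where 2 were used. The third cDC2 PGPC library and the 12 libraries with alum were left out of the comparisons by the rule, which leaves 23 libraries in 8 groups. The RNA put into each reaction was evened to the same number of cells' worth, and the labels do not say how cDC1 and cDC2 were separated.

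Each mature cytosolic ribosome carries 1 copy of nearly every ribosomal protein, so these genes are transcribed in a coordinated way and are among the most abundant mRNAs of growing cells. Many of their mRNAs begin with a run of pyrimidines, the TOP (terminal oligopyrimidine) motif, through which mTORC1 controls their translation. Activated dendritic cells are known to raise protein synthesis early after LPS and to lower it as they mature. Ribosomal protein genes also have many processed pseudogenes, which share sequence with them and can take or give reads.

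Total counts ran from 243870 to 16601064 over the 23 libraries, with a median of 3351868, and 9760 to 15648 genes had counts. The library with the fewest counts was an untreated cDC2 library. In it, 3 counts stood for a level of 11.2 CPM, against 0.118 in the deepest library. Levels are CPM on a library total scaled by TMM, a method that makes the typical gene comparable between libraries. In bulk RNA, fewer cells of a type and less RNA per cell cannot be told apart. A summed list of 9 cDC1 markers (Xcr1, Clec9a, Batf3, Irf8 and others) ran from 1090 to 1818 CPM in untreated cDC1 and from 160.5 to 200.5 in untreated cDC2, so the labels and these markers went the same way. A list of 8 cDC2 markers ran from 959 to 1441 CPM in untreated cDC2 and from 317 to 593 in untreated cDC1, but its genes did not move as one. Of 7 tested, Sirpa, Itgam and Cd4 were called higher in untreated cDC2 and Irf4 lower, 4 of the 7 fitted differences were negative, and their median was -1.10. Cd209a, Clec10a and Mgl2, which mark a part of cDC2, were at 0 in both cDC2 libraries with PGPC.

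The ribosomal protein genes took a larger share of the scaled total in cDC1 than in cDC2 at each treatment, and within cDC1 the smallest share with LPS. In untreated cDC1 the 82 genes summed to 2.99, 4.11 and 2.92% of the scaled total in the 3 libraries. With PGPC the cDC1 libraries held 3.40, 2.74 and 2.16%, with LPS 1.42, 1.04 and 1.19%, and with LPS and PGPC 1.56, 1.82 and 1.89%. The LPS libraries of cDC1 lay below every untreated and every PGPC library, and the libraries with both agents lay between, without overlapping either side. In cDC2 the sums were 0.826, 0.697 and 0.584% untreated, 1.29 and 0.651% with PGPC, 0.337, 0.830 and 0.474% with LPS and 0.406, 0.617 and 0.901% with LPS and PGPC. The 4 cDC2 groups overlapped each other, and the highest cDC2 library with LPS (0.830%) lay below the lowest cDC1 library with LPS (1.04%). The share of counts on a ribosomal RNA locus, which measures rRNA carried into a library, also differed between the groups. In cDC1 it averaged 53.2% ± 16.5 untreated, 27.7% ± 11.8 with PGPC, 21.9% ± 6.85 with LPS and 24.4% ± 15.8 with both agents (SD, n = 3 each). In cDC2 it averaged 32.5% ± 4.45 untreated, 23.2% ± 2.72 with LPS and 27.8% ± 5.27 with both (SD, n = 3 each), and 56.5% ± 6.25 with PGPC (SD, n = 2). The rRNA share and the ribosomal protein share were both high in untreated cDC1 and both low with LPS, but did not run alike in the PGPC groups, where cDC1 had a mean ribosomal protein share of 2.76% and cDC2 one of 0.968%. Its part in the results was not tested.

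**Figure D1:**
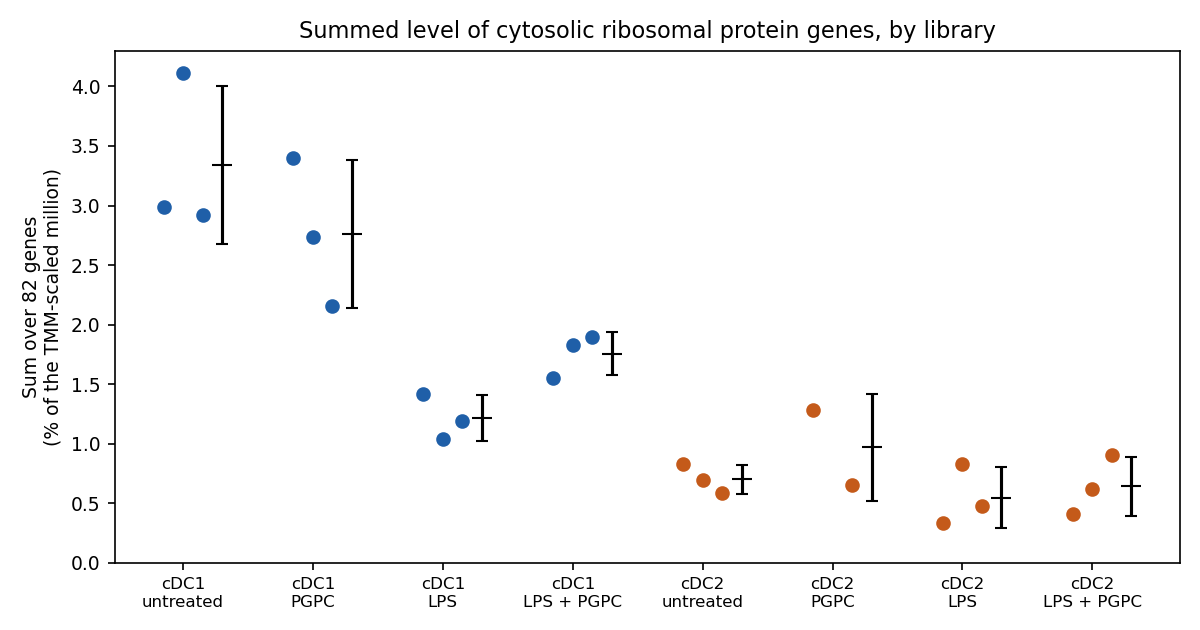
Summed level of the 82 ribosomal protein genes as a percentage of the TMM-scaled total, 1 point per library, in 8 groups of cDC1 (blue) and cDC2 (orange); the bar beside each group is the mean with its SD. The untreated cDC1 libraries sit at 2.92 to 4.11% and the cDC1 libraries with LPS at 1.04 to 1.42%, while all 11 cDC2 libraries sit between 0.337 and 1.29%.

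In cDC1, LPS lowered most ribosomal protein genes. Of 78 tested members, 57 fell and 0 rose in edgeR's quasi-likelihood test (Benjamini-Hochberg adjusted p under 0.05 over all genes), against 17.9% of all genes called either way, 9.37% lower and 8.56% higher. DESeq2 called 68. All 78 fitted changes were negative, with a median of -1.52 on the log2 scale, a 2.87-fold lower level, where the median over all tested genes was -0.12. In 69 of the 78 the LPS libraries all lay below the untreated ones, which held for 20.2% of all genes tested. Both subunits took part: 32 of 47 tested large-subunit genes fell (median -1.49) and 25 of 31 small-subunit genes (median -1.68).

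Rplp0 encodes the base of the ribosomal stalk, which recruits elongation factors. Its level was 2060.0, 3168 and 2234 CPM in the 3 untreated cDC1 libraries and 1153, 693 and 899 CPM with LPS. The groups did not overlap, and the change was -1.44 ± 0.35 on the log2 scale (log2 fold change ± SE; adjusted p = 0.00569, edgeR). Its stalk partners Rplp1 (log2 -1.45 ± 0.35) and Rplp2 (log2 -1.26 ± 0.43) also fell. Rplp2 was uneven among untreated cDC1 libraries, at 441, 189 and 181 CPM.

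Rps6, the protein that S6 kinases phosphorylate downstream of mTORC1, was at 649, 1244 and 843 CPM untreated and 333, 310.0 and 321 CPM with LPS. The 3 LPS libraries stood close together, below the lowest untreated one (log2 -1.50 ± 0.47, adjusted p = 0.028, edgeR). Rpl13a, which also has a described role in silencing inflammatory mRNAs, fell from 1046, 705 and 489 CPM to 264, 152 and 189 CPM (log2 -1.89 ± 0.39, adjusted p = 0.00127, edgeR). Here the LPS libraries were also all below the untreated ones. Rpl10a was tight within both groups, at 244, 283 and 226 CPM untreated and 57.7, 54.3 and 54.9 CPM with LPS, and its change was -2.17 ± 0.42 (adjusted p = 0.000797, edgeR).

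At the lower end of the called members were Rpl39l (-4.42), Rps21 (-2.26), Rpl31 (-2.25), Rpl32 (-2.20) and Rpl10a, and at the other end Rps2 (-1.08), Rpl4 (-1.12), Rps10 (-1.25), Rplp2 and Rpl22 (-1.32), all as log2 fold changes. Of the genes with known roles outside the ribosome, Rps3 (-1.69), Rpl11 (-1.53) and Rpl26 (-1.47) fell. Rps14 (-1.34 ± 0.48, adjusted p = 0.0527) and Rps19 (-1.09 ± 0.44, adjusted p = 0.0838), whose loss causes inherited or acquired anaemias in humans, did not pass edgeR's threshold. Rpl3, a large-subunit protein that reaches near the peptidyl transferase centre, did not pass either. It was at 1124, 1945 and 1314 CPM untreated and 1608, 674 and 729.8 CPM with LPS, so that 1 LPS library lay among the untreated ones and the other 2 lay below them.

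The number of calls depended on single libraries. It was 37, 28 and 37 without LPS replicate 1, 2 or 3 and 33 without untreated replicate 2. With all 36 libraries in the fit, alum libraries included, only Rpl39l was called, while the members' median change was -1.54 and their median SE 1.36 in place of 0.48. In that fit 5.2% of all genes were called. Without the ribosomal RNA and mitochondrial rows, a setting added after the values had been seen, 44 members fell and 18% of all genes were called. Of the 57, 22 passed under every setting tried but the one with all 36 libraries, among them Rplp0, Rpl13a, Rpl10a and Rps3.

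Several marker lists named for other cells were also lower with LPS in cDC1. A list sum does not show which cells its counts came from. The 10 monocyte or macrophage markers summed to 1459 to 4172 CPM untreated and 805 to 1654 with LPS, with 8 of 10 called lower and 1 higher. The 8 plasmacytoid dendritic cell markers summed to 219.6 to 387.5 CPM untreated and 79.1 to 118.4 with LPS (3 of 8 called lower). The 10 neutrophil or granulocyte precursor markers went from 47.2 to 198.3 CPM to 0 to 6.95 CPM with LPS. Of 6 tested, 5 were called lower. With LPS, 6 of the 10 (Elane, Mpo, Ctsg, Ngp, Ltf and Retnlg) were at 0 in all 3 libraries. Elane was also at 0 in the untreated libraries. The 7 stem or progenitor markers were Cd34, Kit, Flt3, Gata1, Meis1, Mecom and Hlf. They summed to 484.6 to 659.8 CPM untreated and 185.4 to 215.5 CPM with LPS (2 of 4 tested called lower). Gata1, Mecom and Hlf were at 0 in every untreated and every LPS library of cDC1. These sums therefore came from Cd34, Kit, Flt3 and Meis1 alone, in cells grown with FLT3 ligand. The cDC1 markers themselves summed to 432 to 628 CPM with LPS, below the untreated libraries. The cDC2 markers summed to 808 to 1097 CPM, above them, with Itgam called higher and Irf4 and Clec10a lower among 7 tested, a median change of -1.67, and Cd209a and Clec10a at 0 in all 3 LPS libraries. The 7 mast cell or basophil markers did not go down, at 1.26 to 2.87 CPM untreated and 1.47 to 4.72 CPM with LPS (1 of 5 tested called higher, 0 lower, median 1.90). The part of any such cells in the ribosomal protein result was not tested.

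**Figure D2:**
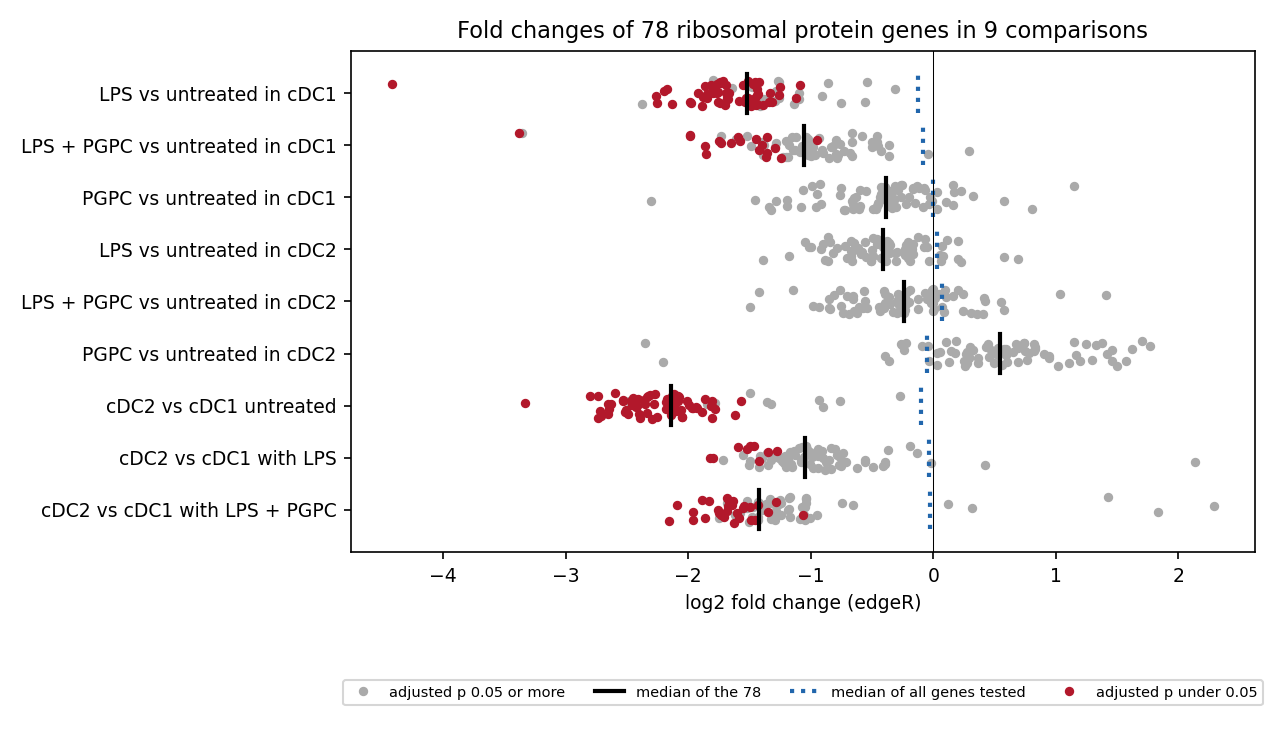
Fitted log2 fold changes of the 78 tested ribosomal protein genes in 9 comparisons, 1 point per gene, red where the adjusted p was under 0.05; black bars mark the median of the 78 and dotted blue bars the median of all 12463 genes tested. In cDC1 with LPS the 78 points all lie below 0 around a median of -1.52, and in untreated cDC2 against untreated cDC1 around a median of -2.14.

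With LPS and PGPC together, fewer members passed in cDC1. Of 78, 19 fell and 0 rose, against 11.9% of all genes called either way, 5.32% lower and 6.57% higher, and the median change from untreated was -1.06. The groups did not overlap, with the treated libraries lower, for 58 members and for 15.1% of all genes tested. Rps28, a small-subunit protein, was at 472, 334 and 291 CPM untreated and 50.7, 122 and 128 CPM with both agents (log2 -1.86 ± 0.46, adjusted p = 0.0081, edgeR). Rpl22, an RNA-binding protein needed for T cell development, went from 177, 134 and 136 CPM to 39.9, 48.1 and 54.1 CPM (log2 -1.65 ± 0.37, adjusted p = 0.00349, edgeR). Both fell under every setting tried except the one with all 36 libraries, in which no member passed. The other called members with the lowest changes were Rps12 (-3.38), Rpl36 (-1.99), Rps21 (-1.99) and Rps29 (-1.85).

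Markers named for other cells were lower with both agents too. The monocyte or macrophage markers summed to 473.8 to 742.3 CPM in cDC1 with LPS and PGPC, below all 3 untreated libraries (7 of 10 called lower, 0 higher). The plasmacytoid markers summed to 86.5 to 216.0 CPM (5 of 8 called lower) and the progenitor markers to 153.1 to 259.5 CPM (2 of 4 tested called lower), both below the untreated libraries. The neutrophil or granulocyte precursor markers, at 1.15 to 70.0 CPM, overlapped them (1 of 6 tested called lower). Their part in the fall of the ribosomal protein genes was not tested.

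Replicate 1 with both agents stood lower than replicates 2 and 3 for Rps28, at 50.7, 122 and 128 CPM, and for Rpl39, at 11.1, 93.3 and 75.7 CPM. For Rplp0, at 1365, 1379 and 1556 CPM, replicate 1 was also the lowest but close to replicate 2. The count of called members was 3, 9 and 10 without replicates 1, 2 and 3 of LPS with PGPC, and 5 and 11 without untreated replicates 1 and 2. DESeq2 called 30.

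LPS with PGPC set against LPS alone in cDC1 gave no called member in edgeR, where 1.94% of all genes were called. At an unadjusted p under 0.05, given without the share of all genes, there were 5 higher and 1 lower. DESeq2 called 1, Rpl8, a smaller share than the 5.75% of all genes it called. The fitted change was positive for 69 of 78 members, with a median of 0.50 (all genes 0.07), and for 20 members the libraries with both agents were all above those with LPS alone (13.6% of all genes). Rpl8, a large-subunit protein near the peptidyl transferase centre, was at 334, 319 and 348 CPM with LPS and 1340.0, 498 and 542 CPM with both. All 3 libraries with both agents were above, the first of them by far (log2 1.25 ± 0.41, adjusted p = 0.117, edgeR).

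PGPC alone in cDC1 called no member either, where 2.08% of all genes were called. An unadjusted p under 0.05 was reached by 11 members, all lower, a count given without the share of all genes. DESeq2 called 2, Rplp2 and Rpl22, a smaller share than the 5.11% of all genes it called. The median change was -0.39 (all genes 0.00). Rpl22 was at 68.9, 83.9 and 58.3 CPM with PGPC, below all 3 untreated libraries (log2 -1.08 ± 0.36, adjusted p = 0.118, edgeR). The comparisons of LPS, PGPC and both with untreated cDC1 share the same 3 untreated libraries. Marker lists differed here too. The neutrophil or granulocyte precursor markers summed to 258.7 to 1162 CPM with PGPC, against 47.2 to 198.3 CPM untreated. The mast cell or basophil markers summed to 50.4 to 77.7 CPM against 1.26 to 2.87 CPM. The cDC1 markers went the other way, at 929.7 to 1074 CPM against 1090 to 1818 CPM. The part of any cells these lists are named for in the PGPC result was not tested.

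In cDC2 no ribosomal protein gene passed in edgeR with any treatment. The counts at an unadjusted p that follow are given without the share of all genes. With LPS, where 8.52% of all genes were called, the median change was -0.41 (all genes 0.03). There, 4 members had an unadjusted p under 0.05, all lower, and DESeq2 called 1, Rpl4, against 10.5% of all genes. With LPS and PGPC, where 7.62% of all genes were called, the median was -0.24 and 2 members had an unadjusted p under 0.05. DESeq2 called 1, Rps26, against 10.6% of all genes. With both agents against LPS alone (0.385% of all genes called), the median was 0.10 and 2 members had an unadjusted p under 0.05. For that comparison DESeq2 called 1, Rpl4, against 1.52% of all genes. With PGPC alone, edgeR called 0.016% of all genes and the group had 2 libraries. The median was 0.54, 12 members had an unadjusted p under 0.05, and DESeq2 called 2, Rplp1 and Rpl10, against 0.152% of all genes. Without cDC2 LPS replicate 5, cDC2 PGPC replicate 4 or cDC2 LPS with PGPC replicate 6, edgeR called 1 member in the comparison of that group with untreated cDC2.

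Within cDC2 the replicates of one group spread widely. Rplp0 was at 658, 597 and 455 CPM untreated, 744 and 480.0 CPM with PGPC, 241, 535 and 361 CPM with LPS and 464, 569 and 658 CPM with both, and these ranges overlapped. Rps27 was at 62.0, 55.7 and 26.1 CPM untreated and 21.5, 105 and 46.9 CPM with LPS, so that LPS libraries lay both below and above the untreated ones. With PGPC it was at 126 and 49.9 CPM, and replicate 4 of this group was the higher one for most members, with a summed level of 1.29% against 0.651% in replicate 5. Replicate 4 was the lowest of the 3 in both LPS groups, at 0.337% with LPS and 0.406% with LPS and PGPC. The fitted LPS change of Rplp0 in cDC2 was -0.59 ± 0.35 (adjusted p = 0.388, edgeR).

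Untreated cDC2 held lower levels of most ribosomal protein genes than untreated cDC1. Of 78 members, 68 were lower and 0 higher, against 10.2% of all genes called either way, 6.17% lower and 3.99% higher. DESeq2 called 70. All 78 fitted differences were negative, with a median of -2.14, a 4.41-fold lower level, where the median over all genes was -0.10. In 73 members every cDC2 library lay below every cDC1 library (19.9% of all genes tested). The large subunit had 40 of 47 called (median -2.12) and the small subunit 28 of 31 (median -2.31). The count was 51 to 66 when 1 of the 6 libraries was left out in turn. It was 63 without the ribosomal RNA and mitochondrial rows (9.67% of all genes called) and 0 with all 36 libraries in the fit. In that last fit the median difference was -2.16, its median SE 1.39, and 1.03% of all genes were called.

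Rpl13a had the lowest value, at 98.9, 75.3 and 41.1 CPM in untreated cDC2 against 1046, 705 and 489 CPM in untreated cDC1 (log2 -3.33 ± 0.41, adjusted p = 2.71e-05, edgeR). Rps6 was at 143, 145 and 127 CPM against 649, 1244 and 843 CPM (log2 -2.72 ± 0.50, adjusted p = 0.000931, edgeR). For both genes the highest cDC2 library was far below the lowest cDC1 library. Rps7 (-2.80) was also among the lowest, and the smallest called differences were those of Rps26 (-1.57), Rps2 (-1.62), Rps25 (-1.78) and Rplp2 (-1.80). Rplp0 was also lower, by a log2 difference of -2.12 ± 0.36.

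The monocyte or macrophage markers ran the other way here, at 5557 to 6989 CPM in untreated cDC2 and 1459 to 4172 CPM in untreated cDC1 (2 of 10 called higher in cDC2, 1 lower). The plasmacytoid markers summed to 18.7 to 61.1 CPM in untreated cDC2 against 219.6 to 387.5 CPM (6 of 8 called lower). The progenitor markers summed to 39.0 to 47.2 CPM against 484.6 to 659.8 CPM (3 of 4 tested called lower). The neutrophil or granulocyte precursor markers summed to 0 to 1.60 CPM against 47.2 to 198.3 CPM (5 of 6 tested called lower). Their part in the difference was not tested.

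**Figure D3:**
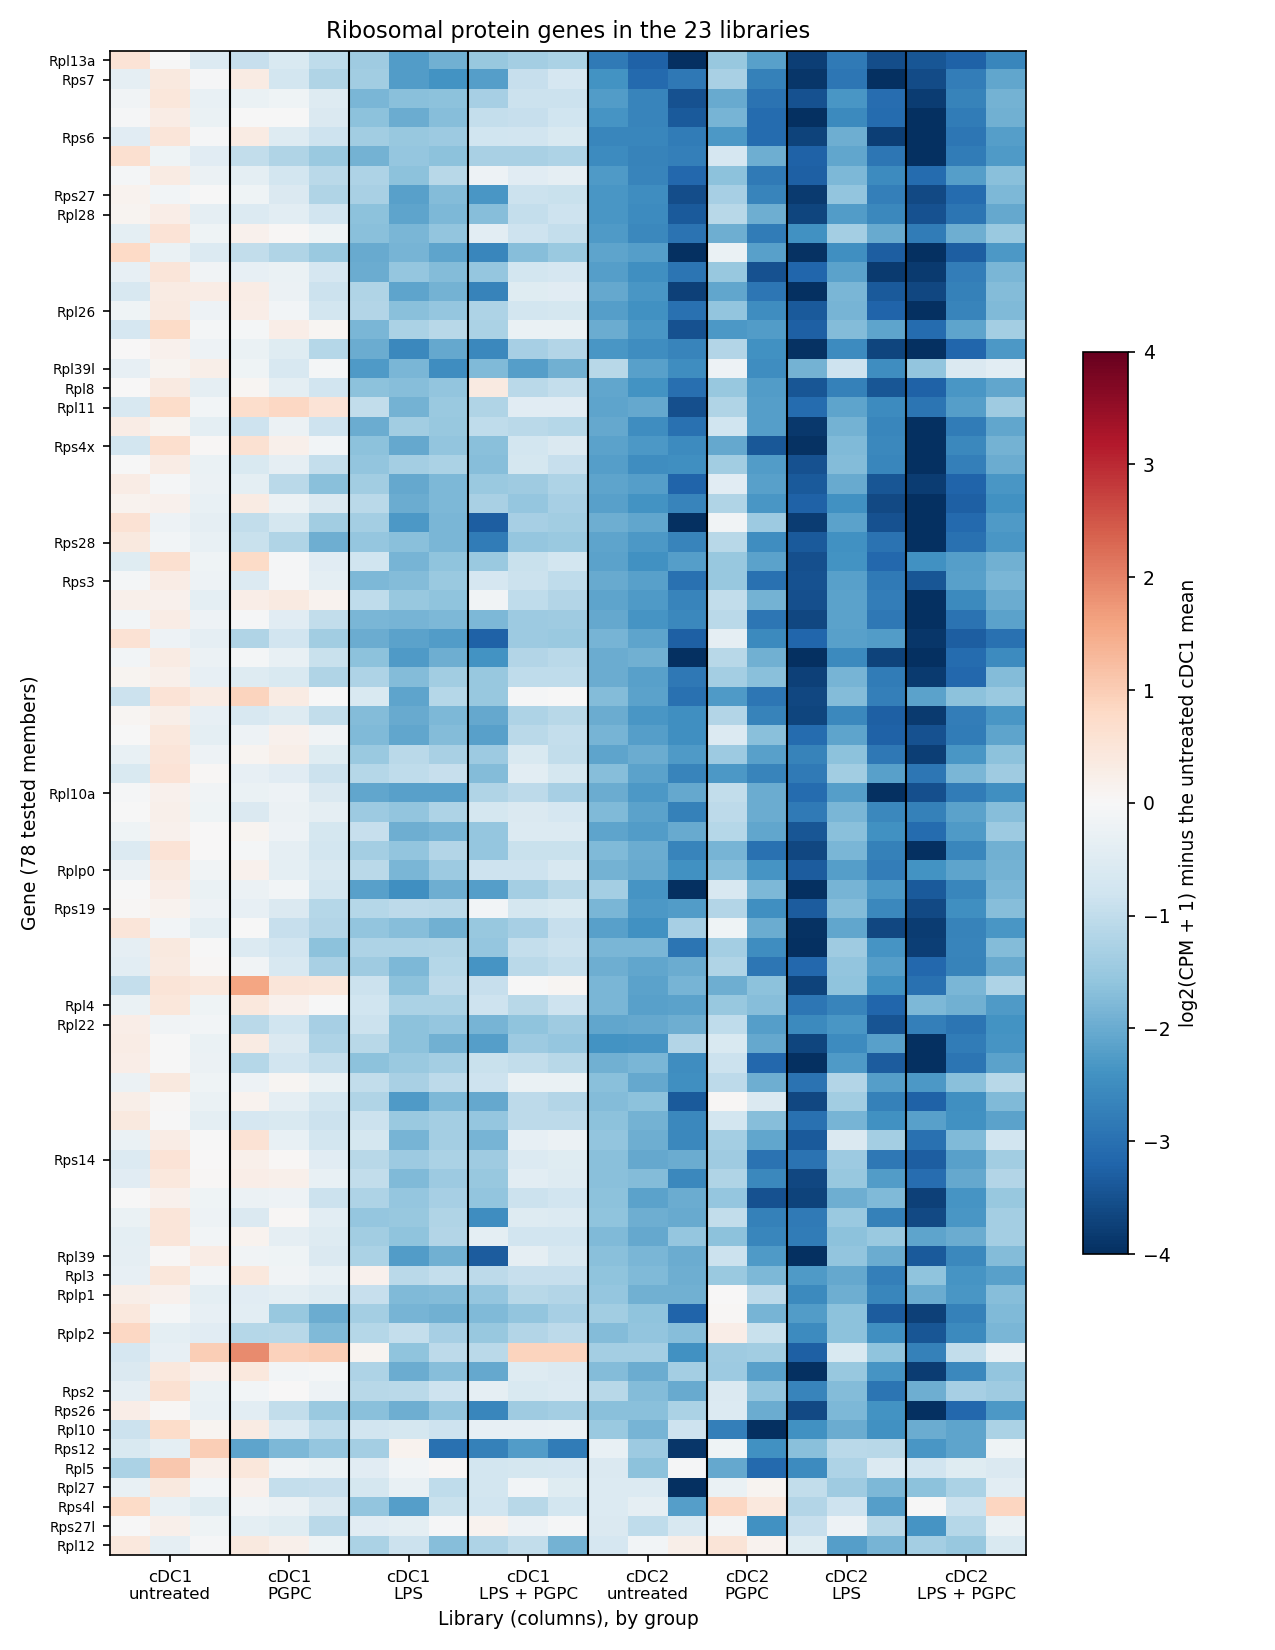
Levels of the 78 tested members (rows, ordered by their fitted difference between untreated cDC2 and cDC1) in the 23 libraries (columns, by group), as log2(CPM + 1) minus the mean of the 3 untreated cDC1 libraries; blue is lower, colours are held at -4 and 4, and some rows are labelled. The cDC2 columns are blue for most rows in every treatment, and the rows at the bottom (Rps12, Rpl5, Rpl27, Rps4l, Rps27l and Rpl12) are paler or mixed.

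The cell types also differed after activation, with fewer calls. With LPS, 9 members were lower in cDC2 than in cDC1 and 0 higher, against 7.79% of all genes called either way, 2.21% lower and 5.58% higher, and the median difference was -1.05. In 45 members every cDC2 library lay below every cDC1 library (13.5% of all genes tested). The 9 were Rpl3, Rpl4, Rpl6, Rpl13a, Rpl8, Rpl14, Rpl22, Rps2 and Rplp0. Rpl4 was at 202, 242 and 165 CPM in cDC2 and 867, 623 and 629 CPM in cDC1 with LPS, with no overlap (log2 -1.80 ± 0.32, adjusted p = 0.00053, edgeR). Rpl3 was at 297, 340.4 and 215 CPM against 1608, 674 and 729.8 CPM (log2 -1.82 ± 0.37, adjusted p = 0.00219, edgeR). These 2 were called under every setting but the one with all 36 libraries. The count was 2 without cDC1 LPS replicate 1, 5 without its replicate 3, and 4, 27 and 2 without cDC2 LPS replicates 4, 5 and 6. It was 0 with all 36 libraries, and DESeq2 called 15, where it called 11.4% of all genes.

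With LPS and PGPC, 29 members were lower in cDC2 and 0 higher, against 7.09% of all genes called either way, 2.51% lower and 4.58% higher, and the median was -1.42. The groups did not overlap, with cDC2 lower, for 48 members and 13% of all genes tested. Rps6 had the lowest value, at 50.9, 118 and 189 CPM in cDC2 and 502, 521 and 573 CPM in cDC1 (log2 -2.15 ± 0.48, adjusted p = 0.00673, edgeR). Rpl8 was at 109, 205 and 245 CPM in cDC2 and 1340.0, 498 and 542 CPM in cDC1 (log2 -2.09 ± 0.42, adjusted p = 0.00303, edgeR). Neither gene's groups overlapped. The count was 11 and 10 without cDC1 replicates 2 and 3, and 2, 8 and 47 without cDC2 replicates 4, 5 and 6 of this treatment. It was 0 with all 36 libraries and 45 with no filter on low counts, where 4.75% of all genes were called. DESeq2 called 46, where it called 10.5% of all genes.

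Marker lists differed between the activated cell types as well. The monocyte or macrophage markers were higher in cDC2 with LPS, at 2478 to 4326 CPM against 805 to 1654 CPM in cDC1 (6 of 10 called higher, median 2.74), and with LPS and PGPC, at 2346 to 4448 CPM against 473.8 to 742.3 CPM (7 of 10 called higher, median 3.37). None of the 10 was called lower in either. The progenitor markers were lower in cDC2, at 88.4 to 118.1 CPM against 185.4 to 215.5 CPM with LPS (1 of 4 tested) and 49.9 to 62.2 CPM against 153.1 to 259.5 CPM with both (2 of 4 tested). Of 6 tested neutrophil or granulocyte precursor markers, 0 were called either way with LPS (median 0.00). With both agents 3 were called lower in cDC2 (median -5.67), where Elane, Mpo and Ctsg were at 0 in both cell types. Their part in the difference was not tested.

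Whether LPS acted differently on the 2 cell types was tested for each gene as an interaction. Of 78 members, 1 passed, where 1.33% of all genes were called either way and 0.995% in its direction. The fitted interaction was positive, that is, the LPS change was less negative in cDC2, for 75 of 78 members, with a median of 1.17 (all genes 0.18). An unadjusted p under 0.05 was reached by 23 members, all positive, a count given without the share of all genes. DESeq2 called 2, a smaller share than the 3.43% of all genes it called. Rpl13a, one of these 2, was at 1046, 705 and 489 CPM untreated and 264, 152 and 189 CPM with LPS in cDC1, and at 98.9, 75.3 and 41.1 CPM untreated and 51.1, 99.5 and 60.5 CPM with LPS in cDC2. The groups were apart in cDC1 and overlapped in cDC2, and the interaction was 1.81 ± 0.54 (adjusted p = 0.104, edgeR). The count of members that passed was 0 without cDC1 LPS replicate 1 or 2, untreated cDC1 replicate 2, cDC2 LPS replicate 5 or untreated cDC2 replicate 5 or 6, and with all 36 libraries in the edgeR fit. It was 3 without cDC2 LPS replicate 4. For LPS with PGPC, no member's interaction passed (0.305% of all genes), and the median was 0.78. An unadjusted p under 0.05 was found for 7 members, again without the share of all genes, and DESeq2 called 0 (1.8% of all genes).

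Some members did not follow the others. Rps27 and Rps27l encode close paralogs, of which Rps27l is known as a p53 target. Rps27 fell with LPS in cDC1, from 347, 292 and 310.2 CPM to 128, 69.7 and 94.9 CPM (log2 -1.69 ± 0.54, adjusted p = 0.0311, edgeR). Rps27l was at 86.7, 99.5 and 76.7 CPM untreated and 63.1, 65.6 and 83.4 CPM with LPS, and the 2 groups overlapped (log2 -0.31 ± 0.47, adjusted p = 0.693, edgeR). Between untreated cDC2, at 57.5, 43.0 and 56.0 CPM, and untreated cDC1 its difference was -0.76 ± 0.48 (adjusted p = 0.339), against -2.65 ± 0.57 for Rps27 in the same edgeR fit. The difference between the 2 paralogs was not tested.

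Of the members whose names mark a tissue-restricted or retrocopied relative, most were scarce. Rpl39l, known from testis, was at 3.43, 5.05 and 5.59 CPM in untreated cDC1 and 0.178, 0.591 and 0 CPM with LPS, where the 3 libraries together held 3 counts against 81 untreated. The ratio of these counts per scaled total was a 28.1-fold lower level (95% counting interval 9.27 to 138.9), and the edgeR adjusted p was 0.0212. Its abundant relative Rpl39 was at 93.5, 124 and 149 CPM untreated and 48.8, 24.8 and 30.8 CPM with LPS (log2 -1.80 ± 0.64, adjusted p = 0.052, edgeR). Rpl3l, a muscle form of Rpl3, was listed at 0 in 18 of the 23 libraries and reached 4.85 CPM in 1 cDC1 PGPC library. Rpl10l, known from testis, had counts in 2 libraries only. Rps4l stayed under 8 CPM in every library, where Rps4x was at 792, 2076 and 1368 CPM in untreated cDC1 and 419, 314 and 437 CPM with LPS (log2 -1.86 ± 0.53, adjusted p = 0.0158).

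**Figure D4:**
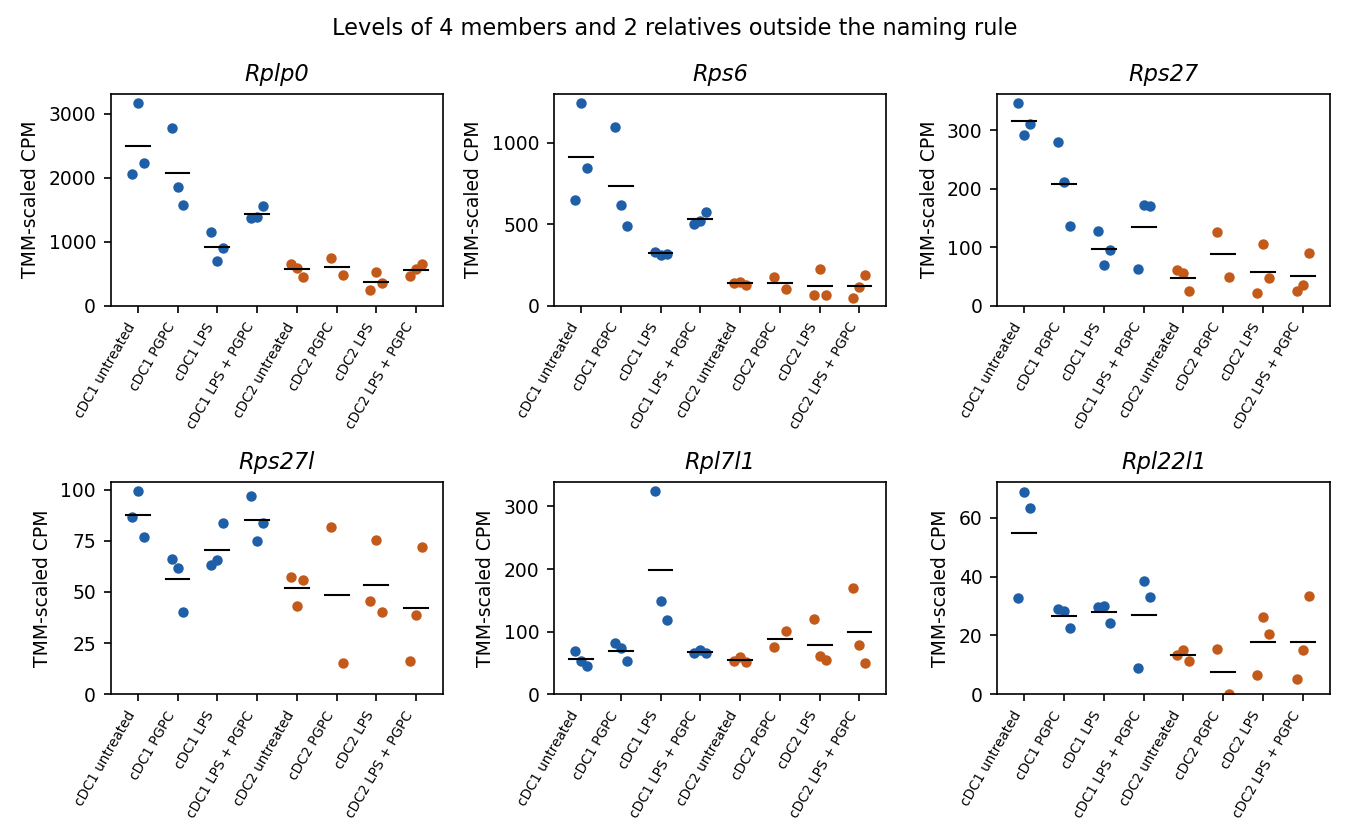
Levels in TMM-scaled CPM, 1 point per library with the group mean as a bar, of the members Rplp0, Rps6, Rps27 and Rps27l and of Rpl7l1 and Rpl22l1, which the naming rule leaves out; cDC1 is blue and cDC2 orange. Rplp0, Rps6 and Rps27 are lower with LPS in cDC1 and lower in untreated cDC2, Rps27l overlaps between untreated and LPS cDC1, and Rpl7l1 is higher with LPS in cDC1.

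Of the tested members, 8 passed in none of the 13 comparisons, namely Rpl5, Rpl9, Rpl10, Rpl12, Rpl27, Rpl39, Rps27l and Rps4l. For 3 of them most reads of the family were counted on near copies, that is, annotated pseudogenes of which at least 50% of all 36-base windows also occur in the member's transcripts. The near copies held 97.2% of the counts of Rpl5 and its near copies together, 92.1% for Rpl12 and 88.5% for Rpl27, and none of the counts of these 3 members in any library with reads was a whole number, as happens when an estimator splits shared reads. The share was 54.0% for Rpl11, 48.0% for Rps12 and 28.3% for Rps6, whose own values are uncertain to that extent, and 0 for Rpl22, Rps27l and Rpl39l. Rpl5, which with Rpl11 binds 5S rRNA and restrains MDM2, was at only 2.57, 17.2 and 9.06 CPM in untreated cDC1 as deposited. With the near-copy rows added it was at 192, 565 and 333 CPM untreated and 119, 91.2 and 112 CPM in untreated cDC2.

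Rpl12 with its near copies was at 77.1, 126 and 80.1 CPM in untreated cDC1 and 21.6, 23.6 and 31.4 CPM with LPS, with no overlap (log2 -1.89 ± 0.44, adjusted p = 0.00365, edgeR). Rpl27 was at 183, 218 and 167 CPM and 76.0, 65.0 and 65.0 CPM (log2 -1.46 ± 0.44, adjusted p = 0.022, edgeR). Rpl5 changed by -0.86 ± 0.34 with LPS (adjusted p = 0.0811) and differed by -1.76 ± 0.35 between the untreated cell types (adjusted p = 0.00203, edgeR). In that setting 64 members were lower with LPS in cDC1 and 71 in untreated cDC2, where 17.9% and 10% of all genes were called. The setting was added after the values had been seen. The 27 tested members with at least 10% of their family's counts on near copies had a median LPS change of -1.51 in cDC1, and the 51 others -1.55.

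RefSeq start sites on GRCm38.p6 were at hand for 60 of the 82 members. A run of at least 8 pyrimidines was sought on the strand that reads like the RNA (only C or T). It touched the bases from 5 before to 5 after a start in 24 of them (40%), and in 2962 of 27025 of all genes (10.96%). The 30-base windows below, 15 bases before to 14 after the annotated start, show this feature for members that fell with LPS in cDC1, then for Rps27l and Rpl22l1, which did not pass, and Rpl7l1, which rose; capitals mark the longest run that touches those bases.
Rps6 (chr4:86857353-86857382, minus strand): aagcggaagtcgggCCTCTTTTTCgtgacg
Rps27 (chr3:90213634-90213663, minus strand): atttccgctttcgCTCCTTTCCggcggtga
Rpl28 (chr7:4792950-4792979, plus strand): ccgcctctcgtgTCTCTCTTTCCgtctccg
Rplp2 (chr7:141447636-141447665, plus strand): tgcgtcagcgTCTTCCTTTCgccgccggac
Rplp0 (chr5:115559452-115559481, plus strand): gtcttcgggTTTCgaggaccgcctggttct
Rps27l (chr9:66946071-66946100, plus strand): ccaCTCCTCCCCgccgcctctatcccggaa
Rpl7l1 (chr17:46782642-46782671, minus strand): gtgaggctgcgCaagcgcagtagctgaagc
Rpl22l1 (chr3:28805493-28805522, plus strand): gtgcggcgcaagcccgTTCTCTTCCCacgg
The run spans the start in Rps6, Rps27, Rpl28 and Rplp2 and is short in Rplp0. It lies upstream of the first of 2 annotated starts in Rps27l, is a single base in Rpl7l1 and begins just after the start in Rpl22l1. The 23 tested members with a run of at least 8 had a median LPS change of -1.49 in cDC1 and -2.14 between untreated cell types, and the 34 with a shorter run -1.54 and -2.12. An annotated start can differ from the one used in these cells, so a window without a run says only that these letters are not in it.

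Relative to untreated cDC1, shorter members were lower than longer ones by a small margin in most libraries. The 78 members were split at 910 bases, the median of their longest annotated transcripts. With LPS in cDC1, 31 of the 39 shorter ones fell (median -1.69) and 26 of the 39 longer ones (median -1.48). With LPS and PGPC in cDC1 it was 13 (median -1.20) and 6 (median -1.01). On that scale, the median of the shorter members minus that of the longer ones was 0.22, -0.17 and -0.04 in the untreated cDC1 libraries themselves. It was -0.11, -0.23 and -0.28 in cDC1 with PGPC. In the 6 cDC1 libraries with LPS or both agents it ran from -0.09 to -0.35, which overlaps the untreated spread. Over all 23 libraries it was lowest in cDC2 LPS with PGPC replicate 4 (-0.55) and highest in cDC2 PGPC replicate 4 (0.36).

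Ribosomal proteins with other names and relatives of ribosomal proteins were read from a list of 8 that the rule leaves out. With LPS in cDC1, 3 fell and 1 rose. Rpsa (log2 -1.92 ± 0.36), Rps3a1 (-1.77 ± 0.45) and Rack1 (-1.21 ± 0.37), which sits on the small subunit as a signalling scaffold, fell. Rpl7l1, a relative of Rpl7, was at 68.6, 53.0 and 45.6 CPM untreated and 325, 149 and 119 CPM with LPS, where all 3 libraries lay above (log2 1.84 ± 0.44, adjusted p = 0.00468, edgeR). With LPS and PGPC it was at 66.2, 71.4 and 65.4 CPM (log2 0.29 ± 0.43 against untreated, adjusted p = 0.739, edgeR). In untreated cDC2, 6 of the 8 were lower than in untreated cDC1, and Rpl7l1 differed by -0.01 ± 0.44. Fau, which encodes a ribosomal protein fused to a ubiquitin-like protein, differed by -1.93 there and did not pass with LPS in cDC1. Near copies held 85.2% of the counts of Fau and its near copies.

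Other genes with TOP mRNAs, most of them translation factors, also had calls. Of 24 tested, 9 fell and 2 rose with LPS in cDC1 (median -1.04), where 9.37% of all genes fell and 8.56% rose. In untreated cDC2, 13 were lower and 0 higher than in cDC1 (median -1.44), against 6.17% and 3.99% of all genes. Eif3h (log2 -1.67 ± 0.38), a subunit of the initiation factor eIF3, and Eef1b2 (-1.88 ± 0.48), an elongation factor subunit, fell with LPS in cDC1, while Eif2s3x, a subunit of eIF2, and Hnrnpa1 rose (2.16 ± 0.56 and 1.47 ± 0.48). A separate list of 25 initiation factors had 2 higher and 0 lower with LPS in cDC1, near the 8.56% of all genes called higher, and a median of 0.31. The 2 were the cap-binding protein Eif4e (1.78 ± 0.41) and Eif4g2 (1.21 ± 0.36).

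Lists of genes that build ribosomes are read against the same shares, 17.9% of all genes called either way with LPS in cDC1 and 10.2% between the untreated cell types. Of 53 tested genes for ribosome assembly and rRNA processing, 3 fell and 2 rose with LPS in cDC1 (median 0.01), all as log2 fold changes from edgeR. Those that fell were the nucleolar proteins Npm1 (-1.71 ± 0.44) and Ncl (-0.98 ± 0.34) and the nuclease Nob1 (-1.35 ± 0.44), and those that rose were Gtpbp4 (1.53 ± 0.46) and Tsr1 (1.52 ± 0.50). In untreated cDC2, 1 of 53 was lower, Npm1 (-2.27 ± 0.45). Of 15 genes for RNA polymerase I, which transcribes rRNA, 1 fell with LPS in cDC1, Cd3eap (-1.73 ± 0.59), and 2 were lower in untreated cDC2, Polr1c (-1.60 ± 0.50) and Polr1d (-1.77 ± 0.42). Mitochondrial ribosomal proteins, which serve translation inside mitochondria, gave 3 of 77 lower with LPS in cDC1 (median -0.64), namely Mrpl28 (-1.35 ± 0.37), Mrpl30 (-1.29 ± 0.45) and Mrps26 (-1.56 ± 0.53), and 6 of 77 lower in untreated cDC2 (median -0.84).

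In the MYC network, Mxd1, a repressor that opposes MYC, rose with LPS in cDC1 (2.11 ± 0.42) and Mlx rose (1.54 ± 0.48), while Mycl, a MYC relative known from dendritic cells, fell (-2.70 ± 0.58). These were 3 of 10 tested. Of 18 tested genes of the mTORC1 pathway, Rragd and Deptor, both at few counts, fell and Rptor, the raptor subunit, rose (1.04 ± 0.33), a share near the 17.9% of all genes called either way. Between the untreated cell types, Mycl was lower in cDC2 (-5.37 ± 0.73) and Rptor higher (2.13 ± 0.34), and the S6 kinase gene Rps6kb1 lower (-1.90 ± 0.46). These lists were chosen with earlier results of the same data known, and their counts describe these libraries only.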

How the data were processed

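RNA was measured by Smart-Seq2 libraries sequenced paired end, per the labels' protocols. The authors deposited 1 table of RSEM expected counts per gene on GRCm38, per the submitters' processing notes, which also name bcl2fastq 2.2; no RSEM version, annotation or strand setting was given in the sources used here. Of its nonzero values, 20.95% were not whole (tolerance 0.001), and 73.4% of the members' values. Expected counts were rounded. Libraries were grouped by the labels' cell type and treatment. A filter by filterByExpr with at least 10 counts in enough libraries and a total of 15 left 12463 genes, which were tested with edgeR 4.0.16 (quasi-likelihood, TMM, 8 group means over 23 libraries, Benjamini-Hochberg over all genes, threshold 0.05) in R 4.3.3; DESeq2 1.42.0 was an alternative. Folds are log2 with SE. Counts of members at an unadjusted p are given without the share of all genes and describe the members only. Where replicates are cited, cDC1 carries numbers 1 to 3 and cDC2 4 to 6.

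Named members were a panel of well-known genes, up to 5 at each end among those called, all called where few were, and up to 4 of each other list by adjusted p. Rpl8, Rpl28, Rps28 and the genes called by DESeq2 alone, where outside this rule, were chosen after their values were seen, as were Ncl and Hnrnpa1. Some genes that this rule names are not reported here. The members and lists were chosen with earlier results of these data known. Sequences are RefSeq starts on GRCm38.p6. The script was tested on simulated data. Counting intervals cover counting error only. Alternatives were RLE scaling, no filter, DESeq2, a replicate block, all 36 libraries and each replicate left out. Others removed ribosomal RNA and mitochondrial rows, left member rows out of the scaling only, or added pseudogene counts.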

Additional observations from a re-analysis of the deposited data

Results flagged for a closer look

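Among the libraries kept out of the comparisons, the members' share of raw counts was above the highest untreated library of the same cell type in 7. This share is not on the TMM-scaled total used above. It was 3.98% in cDC1 Alum replicate 1, 1.10%, 1.63% and 1.27% in cDC2 Alum replicates 4, 5 and 6, 1.20% and 1.97% in cDC2 LPS with Alum replicates 5 and 6, and 3.55% in cDC2 PGPC replicate 6, which held 3805 counts. On the scaled total with all 36 libraries, cDC1 Alum replicate 1 (1.43%) was below the highest untreated cDC1 library (4.31%). There, cDC2 LPS with Alum replicate 5 (0.234%) and cDC2 PGPC replicate 6 (0.767%) were below the highest untreated cDC2 library (0.871%). The other flagged libraries stayed above it, and cDC1 Alum replicates 2 and 3 (16.6% and 5.58%) were above untreated cDC1. No explanation of these shares was tested.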

How the results depend on the processing

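With all 36 libraries in the fit, 1 member was called for LPS in cDC1 and 0 in the other comparisons, the interactions included. The shares of all genes called are given in brackets below. DESeq2 called 2 for PGPC (5.11%), 30 for LPS with PGPC (16%) and 1 for LPS with PGPC against LPS (5.75%) in cDC1. In cDC2 it called 1 for LPS (10.5%), 2 for PGPC (0.152%), 1 for LPS with PGPC (10.6%) and 1 for that against LPS (1.52%). Between cell types it called 15 with LPS (11.4%), 46 with LPS and PGPC (10.5%) and 2 for the LPS interaction (3.43%). With no filter the counts in cDC2 were 1 for PGPC (0.135%) and 1 for LPS with PGPC (4.45%). Between cell types they were 14 with LPS (5.18%) and 45 with LPS and PGPC (4.75%).

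With 1 replicate left out in turn, the counts ran from 28 to 52 for LPS in cDC1, 3 to 17 for LPS with PGPC in cDC1, 51 to 66 between untreated cell types, 2 to 27 with LPS and 2 to 47 with LPS and PGPC, 0 to 3 for the LPS interaction and 0 to 1 for LPS, PGPC and both in cDC2. The others stayed at 0. The cause was not tested.

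Same-numbered libraries deviated together with r over 0.1 in 8 of 33 pairs (median 0.030), and differently numbered ones in 5 of 66 (median -0.018). The main fit did not pair samples by number, and these values do not settle whether the numbers mark paired samples. With the replicate block, 50 members were called for LPS in cDC1 (17.2% of all genes) and 15 for LPS with PGPC in cDC1 (11.6%). It called 1 for the LPS interaction (1.31%) and 0 in the other comparisons fitted. Cell types share no numbers, so their comparisons had no such fit. Among 6611 values of single genes under the alternatives, 6216 kept their side of the threshold, 320 lost it, 75 gained it and 0 reversed among called genes. In cDC2 the members' uncalled medians changed sign with the setting: -0.06 to 0.96 for PGPC, -0.76 to 0.07 for LPS with PGPC and -0.39 to 0.60 for that against LPS. The untreated cDC2 library with 243870 counts limits what low members could show.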
